A study of Bos taurus with 28 samples.

Results

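Bovine blastocysts of day 7 were compared with ovoid conceptuses of day 13, the stage at which elongation begins, in 10 of the 28 mRNA sequencing libraries of a series that runs from day 7 to day 19. The members were the 5 libraries labelled day 13 and 5 of the 6 labelled day 7. The sixth, day 7 replicate 6, was left out because its file carries the title of a sample labelled day 16. Embryos were flushed from synchronised crossbred beef heifers of about 18 months, mostly Charolais and Limousin crosses, all inseminated with semen of 1 bull. By the protocols, the heifers of day 7 (9 assigned) were superovulated with FSH and their blastocysts pooled 5 to a library, whereas the heifers of day 13 (23 assigned) were not superovulated and each conceptus gave a library. Against this, the characteristics given for day 13 list superovulation and pooling as yes, and name the stage as an elongated embryo. By the protocols, then, stage, pooling and superovulation changed together between these 2 days and cannot be told apart. Polyadenylated RNA was isolated directly from the embryos on both days.

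The blastocyst consists of an inner cell mass and a surrounding trophectoderm, the epithelium that will form the outer layer of the placenta. In cattle the blastocyst leaves the zona pellucida and floats free in the uterus, fed by uterine secretions, while hypoblast cells spread to line its cavity and an embryonic disc forms. The trophectoderm then proliferates, the sphere becomes ovoid and later a filament, and the trophectoderm secretes interferon tau, the signal by which the mother recognises pregnancy. The data give 1 value for each Ensembl bovine transcript identifier and do not pair the identifiers with gene names. Trophectoderm, inner cell mass and hypoblast markers could therefore not be read, nor could the labelled stages be checked against them, and no sequence is shown. Transcripts are described by identifier, length, level and behaviour.

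Values are in RPKM, reads per kilobase of transcript and 1e6 reads of the library (M). Total reads, recovered from the RPKM values, ran from 0.474 to 5.88 M on day 7 and from 1.23 to 6.50 M on day 13 (exact permutation test of the means, two-sided p = 0.111, adjusted p = 0.222 over 4 library measures). At an equal depth of 473537 reads, 15100 ± 583 transcripts had a read on day 7 (SD, n = 5) and 14242 ± 656 on day 13 (exact permutation test, p = 0.0556, adjusted p = 0.222). Single libraries moved these p-values across 0.05 before adjustment: by the same exact test, total reads gave 0.0317 without day 7 replicate 2 and 0.0476 without day 13 replicate 5, and transcripts with a read gave 0.0317 without day 7 replicate 3 and 0.00794 without day 7 replicate 4. A transcript of 92 nucleotides took up 34.3% of day 7 replicate 5 (34.2 to 34.5, Wilson interval at 95%), against 0.236% to 2.99% in the other 9 libraries. In bulk libraries, fewer cells of a type and less RNA per cell cannot be told apart.

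The libraries of each day were not equally alike. Over the 15275 tested transcripts, Pearson correlations of log2(RPKM + 1) averaged 0.933 among day 13 replicates 1 to 4 (6 pairs) and 0.736 between these and day 13 replicate 5 (4 pairs). Day 7 replicates 2, 3 and 4 averaged 0.875 with each other (3 pairs). Day 7 replicate 1 averaged 0.700 with the others of its day, and day 7 replicate 5 averaged 0.732. The 25 pairs across days averaged 0.750. Day 13 replicate 5 averaged 0.678 with the day 7 libraries and day 7 replicate 1 averaged 0.647 with the day 13 libraries, both below the value with their own day. Day 7 replicate 5 averaged 0.745 with the day 13 libraries, above the 0.732 with its own. Its closest library was nonetheless day 7 replicate 4 (0.839), and its lowest value within its day was with replicate 1 (0.638). Nor was nearness to day 13 particular to it. Day 7 replicate 4 stood at 0.834 to 0.855 with day 13 replicates 1 to 4 and 0.707 with replicate 5. Within its own day that library stood at 0.698 to 0.865. At equal depth the 25 pairs across days averaged 0.717, with 0.871 among day 13 replicates 1 to 4, 0.706 for replicate 5 with them, and 0.684 and 0.715 for day 7 replicates 1 and 5. These correlations are across transcripts, which are not independent replicates, and describe the libraries only.

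**Figure D1:**
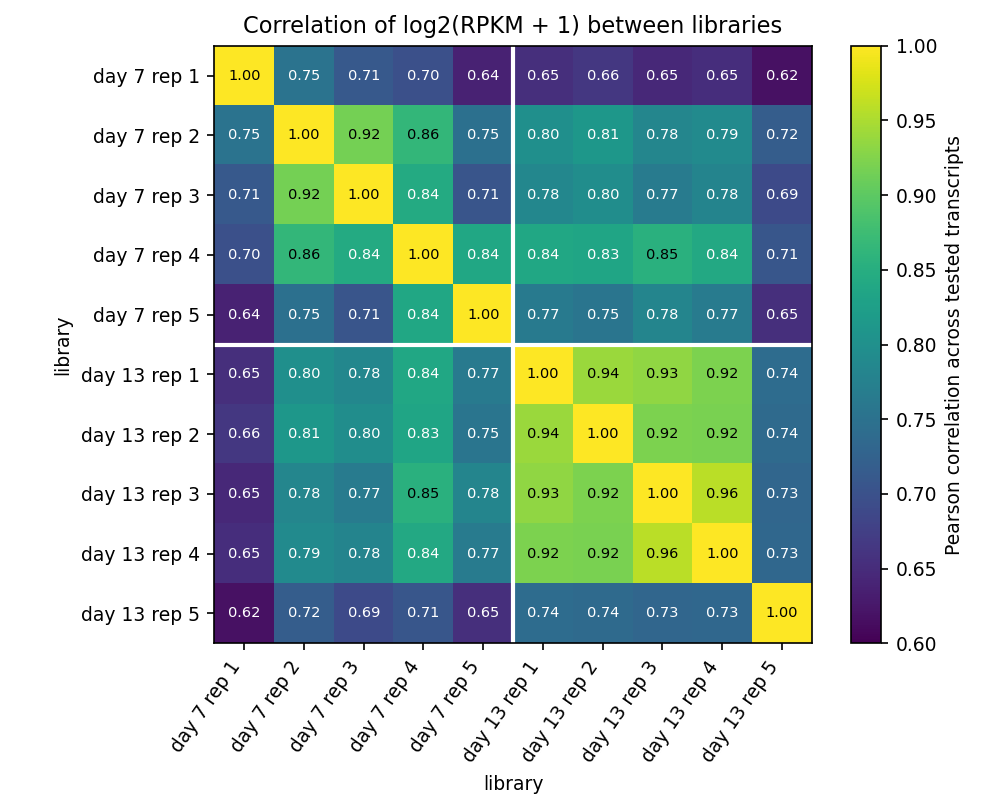
Pearson correlation of log2(RPKM + 1) across the tested transcripts for each pair of the 10 libraries, day 7 before day 13 on both axes, with white lines between the days. Day 13 replicates 1 to 4 form a block averaging 0.933, while day 13 replicate 5 averages 0.736 with them and day 7 replicates 1 and 5 average 0.700 and 0.732 with the others of their day.

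Between day 7 and day 13, 552 of 15275 tested transcripts changed (3.61%), 345 of them higher on day 13 (2.26%) and 207 lower (1.36%). Tested transcripts had at least 1 RPKM in at least 4 of the 10 libraries. A transcript was called at an adjusted p under 0.05 (limma on log2(RPKM + 1), Benjamini-Hochberg over all tested) with a log2 change of at least 1 in either direction. Before adjustment, 2675 transcripts had a p under 0.05. The rises had a median log2 change of 2.32, and the falls a median of -2.69. Among the largest changes, 28 transcripts fell and 13 rose by at least 4 on the log2 scale. Over all tested transcripts the changes had a median of 0.11, and of -0.08 with total reads as a covariate.

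The number of calls moved with single libraries, and their balance with day 7 replicate 5 and with the processing. It was 923 without day 7 replicate 5 and 861 without day 13 replicate 5, and 1525 without both, of which 728 were higher and 797 lower. It was 273, 310, 278 and 314 without day 13 replicates 1, 2, 3 and 4, and 356 and 355 without day 7 replicates 2 and 3. Without day 7 replicates 1 and 4 it was 544 and 391. Each removal also leaves fewer libraries to test. The share of rises among the calls was 62.5%. It was 42.4% without day 7 replicate 5, and 59.7% to 70.2% when any other single library was left out. With all 10 libraries, it was 52.1% with totals that leave out the 92-nucleotide transcript (310 higher, 285 lower). It was 49.5% with total reads as a covariate (159 higher, 162 lower) and 44.6% with voom on the recovered reads (567 higher, 705 lower).

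**Figure D2:**
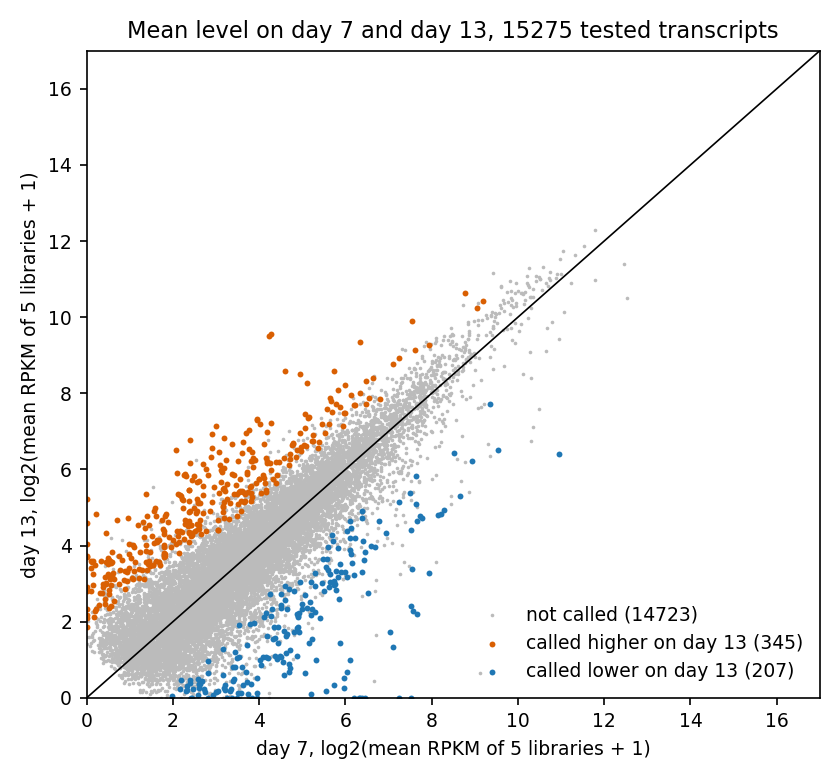
Mean level on day 7 (horizontal) and day 13 (vertical), as log2 of the mean RPKM of 5 libraries plus 1, for the 15275 tested transcripts; the line marks equal levels. The 345 transcripts called higher lie above the line and the 207 called lower below it, several of these at or near 0 on day 13.

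The 2 largest rises among called transcripts with separate groups were ENSBTAT00000004170 (1256 nucleotides) and ENSBTAT00000004171 (1175 nucleotides). ENSBTAT00000004170 stood at 15.5, 26.4, 24.4, 16.160 and 6.73 RPKM in day 7 replicates 1 to 5, and at 744, 1067, 422, 834 and 560 RPKM in day 13 replicates 1 to 5. Every day 13 library was more than 10 times above every day 7 library, and day 13 replicate 5 lay within the range of its day. The means were 17.8 ± 7.87 RPKM on day 7 (SD, n = 5) and 725 ± 249 RPKM on day 13 (n = 5), a 40.7-fold difference of means (log2 change 5.33 ± 0.39 SE, with an adjusted p of 9.9e-06 by limma).

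ENSBTAT00000004171 followed the same course in every library. It averaged 18.4 ± 7.84 RPKM on day 7 and 749 ± 255 on day 13 (log2 change 5.32 ± 0.39, limma, adjusted p = 9.9e-06). Its reads nearly equalled those of ENSBTAT00000004170, with 5853 against 6076 in day 13 replicate 1 and 4 against 4 in day 7 replicate 5. Once each was centred on its mean, the 2 transcripts differed by at most 0.05 on the log2 scale in any of the 10 libraries. The counting is not stated in the sources used here, so the same reads may stand behind both, and the split between them is uncertain.

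Day 13 was the high point of this pair. ENSBTAT00000004170 ranged from 24.7 to 319 RPKM on day 10, with a median of 184 (n = 7). It ranged from 40.3 to 60.03 RPKM on day 16 (n = 3) and from 29.8 to 58.8 RPKM on day 19 (n = 4), all below the lowest day 13 library at 422 RPKM. Day 10 spanned from just inside the day 7 range to near the day 13 range, and the later days lay close to each other.

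The 2 largest falls were ENSBTAT00000052247 (798 nucleotides) and ENSBTAT00000006510 (844 nucleotides), both without a single read on day 13 in 23.7 M reads. ENSBTAT00000052247 stood at 118, 500, 199, 87.7 and 10.6 RPKM in day 7 replicates 1 to 5, from 2823 reads in all. With no read, its day 13 level could still be up to 0.159 RPKM, that of 3 reads in the 5 day 13 libraries together. Its day 7 mean of 183 ± 190 RPKM (SD, n = 5) was 1153-fold above this limit, a lower bound on the fold difference of means. Without day 7 replicate 2, the highest, the mean was 104 RPKM and the bound 653-fold. Limma fitted a log2 change of -6.70 ± 0.75 (SE) with an adjusted p of 3.9e-04, a size that depends on the pseudocount.

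ENSBTAT00000006510 stood at 128, 141, 419, 46.3 and 20.02 RPKM in day 7 replicates 1 to 5, from 1297 reads in all. Its day 7 mean of 151 ± 159 RPKM (n = 5) was 1006-fold above the day 13 limit of 0.150 RPKM, again a lower bound (log2 change -6.57 ± 0.64, limma, adjusted p = 1.6e-04). Without day 7 replicate 3, the mean was 83.9 RPKM and the bound 559-fold. Both falls passed the filter on low values through day 7 alone. In each, day 7 replicate 5 was the lowest library of its day, and the highest day 7 library was replicate 2 for one and replicate 3 for the other.

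On day 10 both falls were scattered rather than uniformly lost. ENSBTAT00000052247 was at 96.2, 9.78, 188, 0, 1.20, 0 and 12.9 RPKM in day 10 replicates 1 to 7. ENSBTAT00000006510 was at 63.0, 12.9, 123, 1.86, 0.683, 0 and 1.74 RPKM in the same libraries. Replicates 1 and 3 were the highest of the 7 for both transcripts, and replicate 6 had no read of either. Day 16 replicate 1 held 46.3 and 20.6 RPKM of the 2 transcripts, against at most 1.18 RPKM in the other day 16 libraries, and on day 19 neither exceeded 0.124 RPKM.

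**Figure D3:**
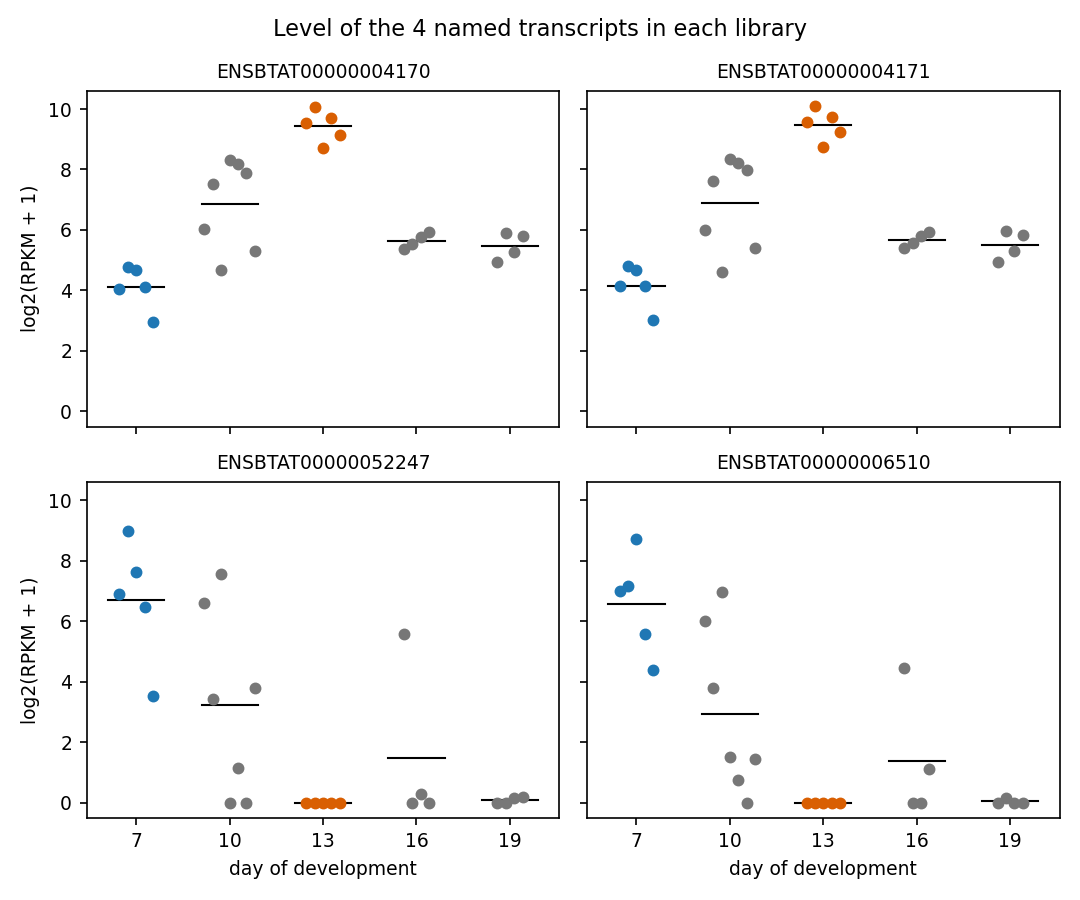
Level of the 4 named transcripts, log2(RPKM + 1), in each library by day of development (day 7 blue, day 13 orange, other days grey; day 16 replicates 2 and 3 are drawn separately); bars are the means of the points. The rises peak on day 13, and the falls are at 0 in all 5 day 13 libraries.

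Groups that did not overlap were commoner than calls. All 5 values of one day lay outside those of the other for 913 tested transcripts (5.98%), 654 higher on day 13 (4.28%) and 259 lower (1.70%). Of the 345 called rises, 304 did not overlap, and of the 207 called falls, 141 did not. Conversely, 238 transcripts had a mean change of at least 2 on the log2 scale without being called, 79 of them higher and 159 lower. The spread within days was unequal: the median SD of a tested transcript was 0.82 on the log2 scale on day 7 and 0.61 on day 13, and 0.37 in day 13 replicates 1 to 4.

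The called falls were least pronounced in 1 library. Day 7 replicate 5 was the sole lowest of its day in 151 of the 207 falls (72.9%), and in 37.5% of all tested transcripts. The median level of the falls was 3.15 on the log2 scale in that library and 4.50 to 5.24 in day 7 replicates 1 to 4. Day 13 replicate 5 was the sole lowest of its day in 45.1% of all tested transcripts and the sole highest in 29.8%, so it was an extreme in most of them. Among the rises it was the highest in 38.6% and the lowest in 27.2%. With totals that leave out the 92-nucleotide transcript, 285 transcripts were lower on day 13 in place of 207; its part in the low values of day 7 replicate 5 was not tested further.

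Few transcripts went from no read to a read in every library. A set of 5 transcripts averaged 5 RPKM or more on day 13 with a read in all 5 libraries, while day 7 held none of their reads among 11.5 M, which allows up to 0.262 CPM (reads per 1e6 reads). Their day 13 means ran from 6.51 to 23.3 RPKM. The opposite held for 9 transcripts, which had a read in all 5 day 7 libraries and no read among the 23.7 M of day 13 (up to 0.127 CPM). Their day 7 means ran from 5.98 to 183 RPKM with a median of 80.0, against a median of 12.3 for the day 13 means of those that appeared. Both sets were chosen by these values and depth differed between the days, so the medians are not a like comparison. Without day 7 replicate 5 and day 13 replicate 5, the counts were 9 appearing and 36 disappearing, and at equal depth 7 and 16. Without day 7 replicate 5 alone 20 disappeared, and without day 13 replicate 5 alone 18. Without day 7 replicate 2 or day 13 replicate 5 the number that appeared was 9, and without day 7 replicate 4 the counts were 10 and 14.

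Of the 9 that disappeared, each had a read in at least 1 day 10 library, but 0 had one in all 7. On day 16 each had a read in some library, and 1 had one in all. Day 16 replicate 1 stood apart: 1.45% of all called falls had no read there, against 9.18% to 12.6% in replicates 2 to 4. On day 19, 5 of the 9 had no read. Of the 5 that appeared, 3 had a read in all day 16 libraries and 3 in all day 19 libraries.

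Most rises began from a measurable level. The median rise had a mean of 4.88 RPKM on day 7 and 33.7 RPKM on day 13, and 70 of the 345 were under 1 RPKM on day 7. The median fall went from 29.1 to 2.58 RPKM, and 73 of the 207 were under 1 RPKM on day 13. Over all 15275 tested transcripts these medians were 11.1 and 10.9 RPKM, with 653 under 1 RPKM on day 7 and 784 on day 13. Both called sets thus held a larger share of such low values on their lower day. The rises took 1.11% to 1.58% of the reads on day 7, the 92-nucleotide transcript left out, and 4.53% to 6.36% on day 13. The falls took 1.90% to 2.35% on day 7 and 0.188% to 0.446% on day 13, where day 13 replicate 5 was the highest. The sets were chosen by these same values, so the shares give their size only.

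Called transcripts were found at every length. The median was 1873 nucleotides for the rises, 1540 for the falls and 1779 for all tested. In 4 equal groups by transcript length, from short to long, 4.11%, 3.12%, 3.67% and 3.56% were called, close to the 3.61% of all tested. In 4 equal groups by mean level, from low to high, the share was 2.91%, 4.08%, 3.95% and 3.51%. With 4 equal groups by reads over the 10 libraries, 2.04% were called in the lowest (4 to 236 reads) and 5.24% in the highest, of which 4.14% were rises and 1.10% falls. Day 13 holds 23.7 M of the reads and day 7 holds 11.5 M, so a rise by itself adds more reads to this sum.

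Among the called transcripts, 40 had a partner that followed the same course within 0.25 on the log2 scale in all 10 libraries after centring. They formed 26 such pairs, and joining partners leaves 530 groups. Of the pairs, 3 had identifier numbers within 3 of each other, the named rises among them. The 552 calls therefore need not stand for 552 genes.

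The day 10, 16 and 19 libraries took no part in the calls and place the called transcripts in time. Levels here are log2(RPKM + 1) averaged over the libraries of a day. Taking days 7, 10, 13, 16 and 19 in turn, the median level of the rises was 2.27, 3.32, 4.92, 3.33 and 3.14. That of the falls was 4.61, 3.04, 1.44, 3.12 and 2.28, while all tested transcripts stayed between 3.24 and 3.41. Choosing transcripts by their day 7 and day 13 values can by itself place the medians of other days between the 2. It does not do so for every transcript. On day 19, 81 of the 207 falls were at or past their day 13 mean and 23 at or before their day 7 mean. For the 345 rises these counts were 21 and 88. In single day 16 libraries the median of the falls was 3.77 in replicate 1 and 2.36 to 2.88 in replicates 2 to 4. Days 16 and 19 also had total RNA isolated first, so preparation and stage cannot be told apart there.

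**Figure D4:**
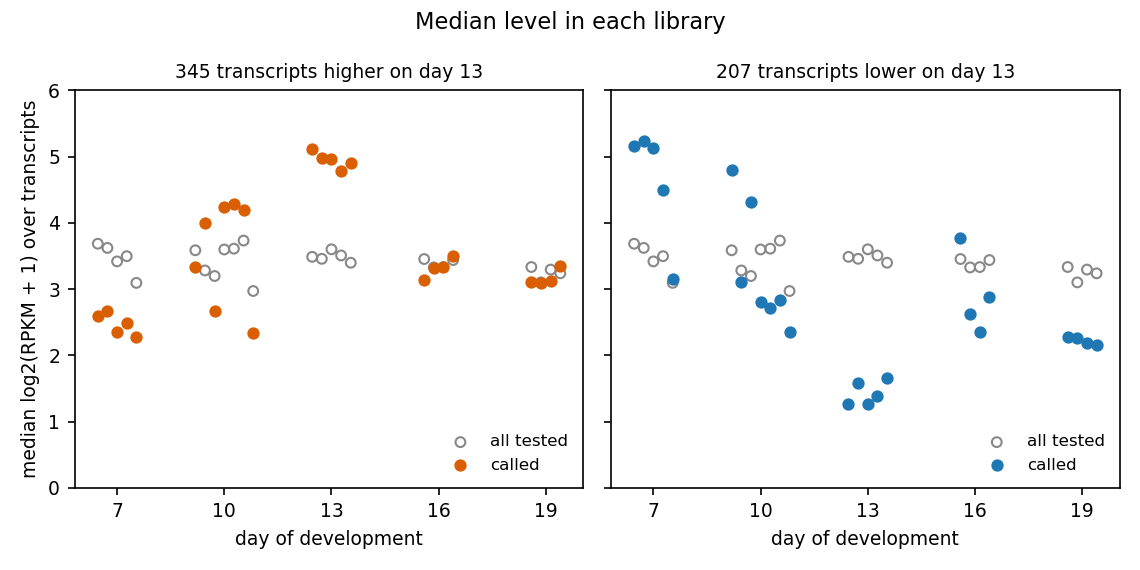
Median log2(RPKM + 1) in each library, by day of development, over the transcripts called higher on day 13 (left, orange) and lower (right, blue); open circles are the median over all tested transcripts in the same library, and day 16 replicates 2 and 3 are drawn separately. The rises are highest on day 13 and the falls lowest. The choice of transcripts fixes only the order of day 13 against day 7. The day 10 libraries spread over most of the range between.

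Single day 10 libraries differed widely in both sets. The median of the rises was 3.34, 4.00, 2.66, 4.25, 4.28, 4.19 and 2.34 in day 10 replicates 1 to 7, against 2.28 to 2.67 on day 7 and 4.78 to 5.12 on day 13. The median of the falls was 4.81, 3.11, 4.31, 2.81, 2.72, 2.83 and 2.36 in the same libraries, against 3.15 to 5.24 on day 7 and 1.27 to 1.67 on day 13. Day 10 replicates 2, 4, 5 and 6 were thus above the day 7 range in the rises and below it in the falls, replicate 2 only narrowly in the falls. Replicates 1 and 3 were within the day 7 range for the falls, and replicate 3 also for the rises. Replicate 7, where the 92-nucleotide transcript took 38.4% of the reads, was low in both; the part of that transcript was not tested.

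Each called transcript was placed nearer to its day 7 or its day 13 mean on each of the other days. On day 10, 108 of the 345 rises (31.3%) and 103 of the 207 falls (49.8%) were nearer to day 13. Among all 1870 tested transcripts with a change of 1 or more these shares were 38.6%, and among the 1439 with a change of -1 or less 50.5%. On day 16, 37.4% of the rises were nearer to day 13, against 47.5% of all transcripts with a change of 1 or more, and 57.5% of the falls, against 51.1%. On day 19 the shares were 34.2% of the rises against 43.6%, and 72.5% of the falls against 65.7%. The larger sets include the called transcripts, and the differences were not tested.

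Over days 10, 16 and 19 together, the commonest course of a rise was to be nearer to its day 7 level on all 3, in 158 of 345 (45.8%). For these, day 13 was a single high point. Another 60 rises were nearer to day 13 on days 16 and 19 but nearer to day 7 on day 10, and 48 were nearer to day 13 on all 3 days. A further 48 were nearer to day 13 on day 10 and nearer to day 7 on the later days. Of the falls, 76 of 207 (36.7%) were nearer to day 13 on all 3 other days and 42 on days 16 and 19 only, while 47 (22.7%) were nearer to day 7 on all 3, with day 13 a single low point. These counts describe the called sets only and were not tested. They were not made for all transcripts with a like change, so whether the shares are particular to the called sets is not known. Preparation also differed on days 16 and 19, as given above. A class says only which mean was nearer. The day 10 mean joins libraries that differed widely, so a class need not be the course of any single embryo.

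**Figure D5:**
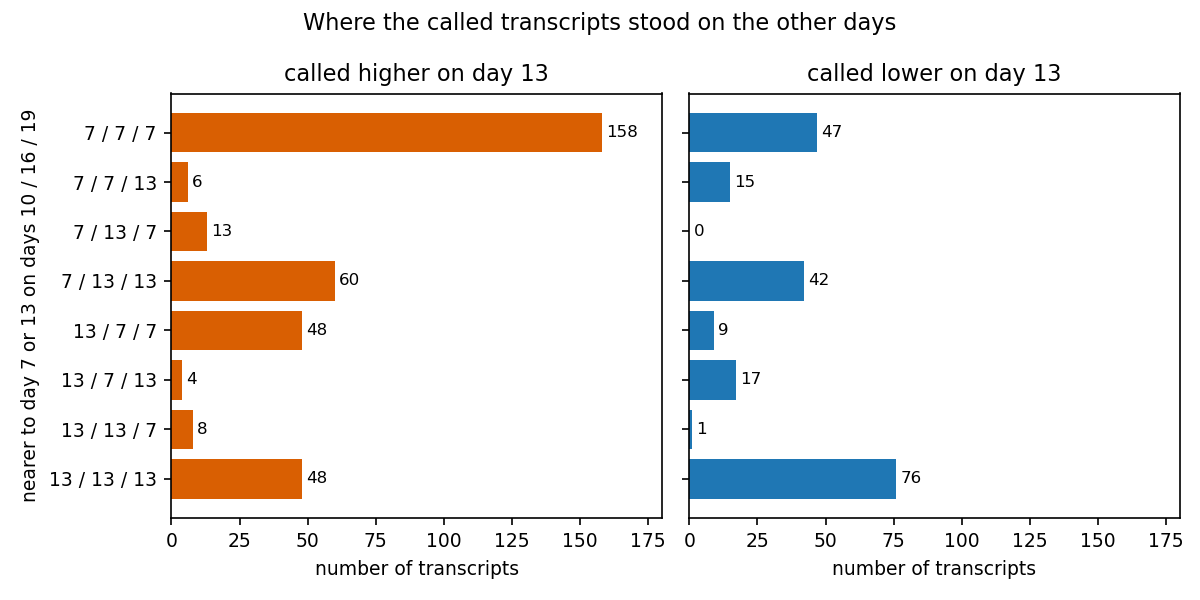
Number of called transcripts (bars, horizontal axis) in each combination of being nearer to the day 7 or the day 13 mean on days 10, 16 and 19, read in that order on the vertical axis, for rises (orange) and falls (blue). The largest class of rises is nearer to day 7 on all 3 days (158), and the largest class of falls nearer to day 13 on all 3 (76).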

How the data were processed

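The authors deposited 1 RPKM value for each of 28054 Ensembl transcript identifiers per library. Per the submitters' processing notes CASAVA was used, with neither version nor role named. The aligner, genome build, annotation and counting method are not stated in any source used here. Whole reads, lengths and library totals were worked out from the values (100.0% of the values above 0 gave a whole number of reads to within 1e-06). Of the 28 files, 12 carry the title of another sample, 3 of them of another day, and those 3 were left out. The 5 day 7 files used are among the 12: each carries the title of another sample of day 7. Each may therefore be a different day 7 sample from the one its label names, while its day is the same by title and label. Groups follow the labels. No pair of libraries within day 7 or day 13 agreed within sampling noise (mean chi-square per transcript 13.5 to 61.5, where noise alone gives about 1). Day 16 replicates 2 and 3 differed by little more than such noise (1.19) and were counted as 1 sample where days are averaged.

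Changes were tested with limma 3.58.1 in R 4.3.3 (lmFit, then eBayes with its trend and robust options) on log2(RPKM + 1), 5 libraries a day and no covariate; fold changes on this scale understate those of low transcripts. The steps were tested on simulated data. Library measures were tested by exact permutation; for the named transcripts, chosen for groups that do not overlap, that test is fixed by the choice and is not given. The labels do not name the heifer of each library, so p-values reflect only how these libraries vary, part of which may be technical. The named transcripts are the 2 with the largest log2 change in each direction among called ones with groups that do not overlap and a mean of at least 5 RPKM on the higher day. None of the identifiers matched the RefSeq table supplied (37063 genes, 0 with an Ensembl identifier), so the planned gene lists and cell type markers were not applied. The members and lists were chosen with earlier results of these data known. Intervals and limits for reads cover counting error only.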

Additional observations from a re-analysis of the deposited data

Results flagged for a closer look

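In each day, 4 library measures, the levels of the 4 named transcripts and the median levels of the called sets were examined for a library with a wide gap to the rest. Such a library was found in 2 of the 18 groups whose values varied. The limit on the gap is set so that chance flags about 1 group in 20 of independent values; these groups share libraries. Day 7 replicate 5 gave 34.3% of its reads to the 92-nucleotide transcript, against 0.287% to 2.99% in the other 4 day 7 libraries. Day 13 replicate 5 had a read of 13071 transcripts at equal depth, against 14456 to 14573 in the other 4 day 13 libraries.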

How the results depend on the processing

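Of 26 alternatives for the count of 552 called transcripts, 11 stayed within 1.5 times of it. It was 348 with a pseudocount of 0.1, 331 without the filter, 321 with total reads as a covariate and 1272 with voom on the recovered reads. Leaving out 1 library gave 273 to 923. Leaving out day 7 replicate 5 and day 13 replicate 5 gave 1525, and leaving out day 7 replicate 1 as well gave 1826. Without day 7 replicates 1, 3 and 5, the shallow libraries, 169 were called. The last 2 settings, and the totals without the 92-nucleotide transcript, were chosen after seeing the data. Falls outnumbered rises in 4 alternatives, and rises made up 42.4% to 70.2% of calls; the cause was not tested. Centring each library on its median gave 364 higher and 266 lower.

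The named rises kept their call in all 26 alternatives (log2 change 4.89 to 5.50, adjusted p at most 0.00336). The named falls kept it in the 24 alternatives that gave a value (-9.99 to -6.03, adjusted p at most 0.00219 by limma). With fewer than 4 day 7 libraries they did not pass the filter. All 4 were chosen for large changes and separate groups in these same libraries. Keeping the call is therefore no independent support and shows only how little the processing mattered for them. The number of transcripts that appeared on day 13 was 9 without day 7 replicate 5 and day 13 replicate 5 and 5 to 10 when leaving out 1 library; the number that disappeared was 36, and 9 to 20, and 16 at equal depth. These alternatives, too, were chosen after seeing the data. No paired analysis was possible because the labels give the 2 days no shared replicate numbers; the numbers used here follow accession order and only name the libraries. Depth limits the low transcripts most: with no read in day 7 replicate 5, a transcript could still lie at up to 6.34 CPM there, and at up to 0.462 CPM in day 13 replicate 1.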

Other observations

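The 3 libraries left out for their file titles give the called transcripts the following levels. The library labelled day 7 replicate 6 has a file titled for day 16. Its median log2(RPKM + 1) was 3.21 for the rises and 3.94 for the falls. The rises were outside the day 7 range of 2.28 to 2.67 and inside the day 16 range of 3.15 to 3.50. The falls were inside the day 7 range of 3.15 to 5.24 and above the day 16 range of 2.36 to 3.77. It held 56.6 RPKM of ENSBTAT00000052247 and 48.8 RPKM of ENSBTAT00000006510, inside their day 7 ranges and above every kept day 16 library. In the library labelled day 19 replicate 5, whose file is titled for day 7, the medians were 2.82 and 4.94, where the other day 19 libraries had 3.10 to 3.35 and 2.16 to 2.28. That library held 289 RPKM of ENSBTAT00000052247 and 90.7 RPKM of ENSBTAT00000006510, the named falls, of which no other day 19 library exceeded 0.124 RPKM. In the library labelled day 16 replicate 5, whose file is titled for day 19, the medians were 2.43 and 2.13. Both lay below the other day 16 libraries (3.15 to 3.50 and 2.36 to 3.77). They also lay below the day 19 libraries that were kept (3.10 to 3.35 and 2.16 to 2.28).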
